A study of Mus musculus with 13 samples.

Results

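The midbrain-hindbrain boundary genes are 10 mouse genes, En1, Gbx1, Gbx2, Otx1, Otx2, Pax2, Pax5, Pax8, Fgf8 and Wnt1, taken by name from the GENCODE M21 annotation (mm10), out of 55450 annotated genes of which 21951 code for protein. Their chromatin was examined by ATAC-seq, in which the Tn5 transposase cuts accessible DNA, in 13 libraries made from oligodendrocyte progenitor cells (OPCs) grown in culture. The OPCs had been panned with an antibody to PDGFRα from litters of hGFAP-Cre;K27M mice aged P5 to P7. The deposited record spells this name AMGFAP-Cre;K27M. The cells were kept in proliferation medium. In the study's mice, a human GFAP promoter drives Cre in neural stem and progenitor cells, and Cre switches on the K27M form of histone H3.3 at its own gene, H3-3a. Libraries labelled control came from littermates, whose exact alleles the labels do not give. Tissue was pooled by region and genotype before culture, so a library is a culture from pooled pups and not 1 animal. There were 3 control brainstem libraries (cultures 51, 59 and 61), 3 K27M brainstem libraries (cultures 41, 59 and 61), 3 control telencephalon libraries (cultures 51, 59 and 61) and 4 K27M telencephalon libraries (cultures 41, 51, 59 and 61). The telencephalon libraries are labelled cortex, and the tissue was dorsal telencephalon with cortex, corpus callosum and hippocampus. P-values take the library as the unit. For the strength of a peak they use the spread between these cultures. For its presence they use counts of libraries, treated as independent unless matched by culture number.

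In the embryo, the midbrain-hindbrain boundary forms where anterior neural tissue expressing the homeobox gene Otx2 meets posterior tissue expressing the homeobox gene Gbx2. Cells at this border secrete FGF8 and WNT1, which pattern the midbrain and the anterior hindbrain, and the transcription factors PAX2, PAX5, PAX8 and EN1 act in the same territory to set up and maintain the organizer. Otx1 and Otx2 belong to the head and forebrain side of this division, and Gbx2 to the hindbrain side. The dorsal telencephalon lies on the anterior side of this division and the hindbrain part of the brainstem on the posterior side, and the libraries allow the accessibility of these genes to be compared by region of origin and by K27M.

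Each library is a list of peaks. The fold enrichment of a peak is its signal over the local background of the same library, and the fold percentile is the share of that library's own peaks with a fold at or below it. A promoter was called in a library when a peak overlapped the window from 2 kb upstream to 1 kb downstream of any transcription start of the gene. A locus was the gene with 50 kb on either side. Peaks from all libraries that overlapped were joined into merged peaks, and 99 of the 99746 merged peaks lay in the 10 loci. The lists held 16879 to 52466 peaks, the shortest in control telencephalon culture 59, and the read depth behind them is unknown. A missing peak is thus a peak not called at that library's depth and does not show closed chromatin. Comparisons of promoter calls, merged peak calls and locus peak numbers were repeated at equal number, with every list cut to its 16879 most significant peaks.

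The promoters of the OPC genes Pdgfra, Olig1, Olig2 and Sox10 were called in all 13 libraries, and that of Cspg4 in 3. Of the markers of other cell types, the microglial genes Csf1r and Cx3cr1 and the endothelial genes Cdh5 and Tek had no promoter peak in any library. The microglial genes P2ry12 and Aif1 had one in 12 and 2 libraries, and the endothelial genes Cldn5 and Pecam1 in 3 and 1. The astrocyte genes Gfap and Slc1a2 and the neuronal genes Snap25, Syt1 and Tubb3 were called in all 13 libraries, Rbfox3 in 11, Aqp4 in 8 and Aldh1l1 in 4. These are calls of accessible chromatin and not of expression. Of the 5 regional markers, 3 split by region: the hindbrain genes Hoxa2 (6 of 6 brainstem and 0 of 7 telencephalon libraries, adjusted Fisher's exact p = 0.212) and Hoxb3 (5 of 6 against 0 of 7, adjusted p = 0.564) and the telencephalic gene Emx2 (2 of 6 against 7 of 7, outside the tested range). The other 2 did not, with the telencephalic gene Lhx2 called in all 13 libraries and the hindbrain gene Hoxa3 in 2 of 6 and 1 of 7.

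The sequences below are shown because they are elements of the Gbx2, Otx1, En1 and Pax5 loci described next, and because the elements differ in CG dinucleotides, which are dense at the promoters of many developmental genes. The Gbx2 promoter is the RefSeq entry on mm10 at chr1:89931127-89931426, minus strand, from 250 bases before to 50 bases after the start. The other entries are the 200 bases around the median centre of a merged peak, on the plus strand of mm10, and capitals mark CG.
Gbx2 promoter: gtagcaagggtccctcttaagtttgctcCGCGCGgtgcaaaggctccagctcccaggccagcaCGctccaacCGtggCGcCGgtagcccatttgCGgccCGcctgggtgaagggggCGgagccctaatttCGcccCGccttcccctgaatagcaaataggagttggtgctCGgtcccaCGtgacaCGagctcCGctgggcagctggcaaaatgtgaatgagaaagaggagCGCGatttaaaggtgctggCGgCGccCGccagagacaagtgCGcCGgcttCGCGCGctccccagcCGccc
Gbx2 3.8 kb upstream, chr1:89934636-89934835: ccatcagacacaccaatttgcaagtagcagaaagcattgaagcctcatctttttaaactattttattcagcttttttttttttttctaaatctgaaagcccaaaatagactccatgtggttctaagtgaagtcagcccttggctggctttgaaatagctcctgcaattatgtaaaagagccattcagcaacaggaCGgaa
Gbx2 40.3 kb upstream, chr1:89971320-89971519: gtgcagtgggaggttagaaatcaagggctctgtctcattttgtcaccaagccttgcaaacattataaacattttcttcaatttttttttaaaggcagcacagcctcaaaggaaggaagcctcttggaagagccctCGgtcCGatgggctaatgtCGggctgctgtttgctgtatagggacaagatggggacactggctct
Otx1 15.0 kb upstream, chr11:22017834-22018033: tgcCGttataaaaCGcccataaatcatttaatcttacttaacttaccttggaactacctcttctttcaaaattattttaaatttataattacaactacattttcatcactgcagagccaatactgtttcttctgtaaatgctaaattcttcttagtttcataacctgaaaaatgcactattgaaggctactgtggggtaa
En1 41.8 kb downstream, chr1:120644129-120644328: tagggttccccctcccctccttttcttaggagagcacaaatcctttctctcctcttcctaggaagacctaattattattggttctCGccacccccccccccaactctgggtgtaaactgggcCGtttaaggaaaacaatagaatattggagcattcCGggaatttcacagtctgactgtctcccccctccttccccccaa
Pax5 intron, chr4:44694532-44694731: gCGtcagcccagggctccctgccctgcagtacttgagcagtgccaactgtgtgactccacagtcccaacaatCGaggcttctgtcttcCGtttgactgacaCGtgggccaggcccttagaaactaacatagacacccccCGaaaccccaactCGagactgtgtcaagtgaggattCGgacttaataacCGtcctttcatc
The Gbx2 promoter held 27 CG dinucleotides in 300 bases, against a median of 7 over 32851 RefSeq mouse promoters of that length. The upstream Gbx2 elements held 1 and 3 in 200 bases, the Otx1 element 2, the En1 element 3 and the Pax5 intron element 8, against a median of 2 over the centres of 99646 merged peaks. The Otx1 element was 31% G and C, at percentile 1.98 of all centres.

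Over the 10 genes, promoter peaks were called intermittently and at low folds. A promoter peak was called in 72 of 130 combinations of gene and library, with folds from 2.11 to 3.46, and 63 of the 72 peaks lay under the 50th percentile of their own list (median percentile 16.3). Only Pax5 was called in all 13 libraries, and Fgf8 was called in none. Of the other 8 genes, Gbx2 was called in 11 libraries, En1, Otx1, Otx2 and Pax2 in 9 each, Wnt1 in 6, Pax8 in 5 and Gbx1 in 1. Among protein-coding genes, 42% were called in all 13 libraries, 30.6% in none and 27.4% in 1 to 12, while 8 of the 10 boundary genes fell in that last class. The RefSeq promoter table has entries for 7 of the 10 genes, and 5 of these have a promoter with 20 or more CG dinucleotides (En1, Gbx2, Pax2, Pax5 and Wnt1). Of all coding genes with such a promoter, 72% were called in all 13 libraries (4803 of 6675), against 1 of these 5. That 1 is Pax5, and its called peak lies at an internal start. The Pax5 promoter with 23 CG dinucleotides had no peak in any library. The number of boundary genes with a promoter peak ranged from 3 to 9 per library, with a median of 4 in brainstem and 5 in telencephalon, and from 0 to 4 at equal number.

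**Figure D1:**
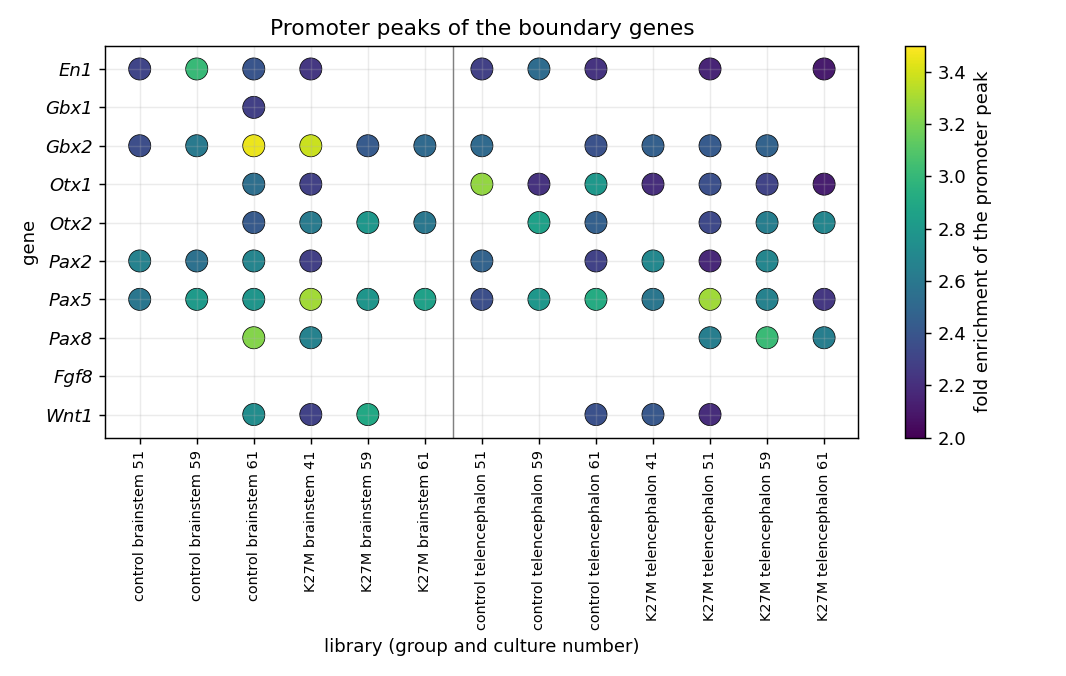
Promoter peaks of the 10 genes (rows) in the 13 libraries (columns, group and culture number), with colour giving the fold enrichment of the highest promoter peak and an empty cell meaning that no peak was called. The vertical line divides the 6 brainstem from the 7 telencephalon libraries: Pax5 fills its row, Fgf8 is empty, Gbx2 fills the brainstem side, and Otx1 fills the telencephalon side with 2 calls in brainstem.

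Otx1, a homeobox gene of the forebrain and midbrain, showed a regional contrast at its promoter. Otx1 (chr11:21994764-22002897, minus strand) was called at its promoter in all 7 telencephalon libraries and in 2 of 6 from brainstem. The folds of the peak at the start (chr11:22000977-22002833) were 3.26, 2.22 and 2.8 in control telencephalon cultures 51, 59 and 61, and 2.18, 2.37, 2.3 and 2.11 in K27M telencephalon cultures 41, 51, 59 and 61. In brainstem the fold was 2.54 in control culture 61 and 2.29 in K27M culture 41. These are the longest brainstem lists, with 52466 and 48487 peaks. The telencephalon libraries with the peak had lists of 16879 to 52164 peaks, and the part of list length in the split was not tested. Both genotypes had the same split, 1 of 3 against 3 of 3 in control and 1 of 3 against 4 of 4 in K27M. At equal number the counts were 0 of 6 and 5 of 7. The two-sided Fisher's exact test gave p = 0.021 without adjustment for the 6 against 7 libraries, and p = 0.125 with libraries matched by culture number. A gene called in 9 libraries lies outside the range of 5 to 8 that was tested across all genes, and over the 2987 genes called in 4 to 9 libraries its adjusted p was 1. In that wider range 0.67% of genes were higher in telencephalon and 1.27% higher in brainstem at an unadjusted p under 0.05. Leaving out any 1 of the 7 telencephalon libraries raised the unadjusted p to 0.0606. Where the peak was called the folds of the regions overlapped, at 2.42 ± 0.177 in brainstem (SD, n = 2) and 2.46 ± 0.416 in telencephalon (SD, n = 7). Emx2 was called in 8 of the 9 libraries with an Otx1 promoter peak, and in 9 libraries overall.

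The other Otx1 peaks called in 2 or more libraries were each called in more telencephalon than brainstem libraries, and a peak 47.7 kb upstream was called in control brainstem culture 59 alone. A separate merged peak 1.3 kb upstream of the start (chr11:22003302-22005058) was called in 0 of 6 brainstem and 5 of 7 telencephalon libraries. Its folds were 2.08 in control telencephalon culture 61 and 2.2, 2.07, 2.19 and 2.13 in K27M telencephalon cultures 41, 51, 59 and 61, in the lowest part of each list (mean percentile 1.48), and none of these was among the top 16879. The exact test gave p = 0.021 unadjusted and 1 adjusted over 11706 merged peaks, and the unadjusted p rose to 0.0606 without any 1 of the 5 libraries. A stronger element 15.0 kb upstream (chr11:22016863-22019016), inside the neighbouring gene Ehbp1 and printed above, was called in 4 of 6 brainstem and 7 of 7 telencephalon libraries. Its fold was 3.07 in control brainstem culture 61, 2.9, 2.86 and 3.13 in K27M brainstem cultures 41, 59 and 61, 2.75, 2.69 and 3.46 in control telencephalon cultures 51, 59 and 61, and 2.78, 3.05, 3.41 and 2.84 in K27M telencephalon cultures 41, 51, 59 and 61. The folds of the regions overlapped, and the exact p for detection was 0.192, outside the tested range. At equal number the counts were 1 of 6 and 5 of 7. An exonic peak near the end of the gene (chr11:21995372-21998308) was called in 3 of 6 and 6 of 7 libraries, and a weak one 5.5 kb upstream in 2 K27M telencephalon libraries.

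The number of peaks in the Otx1 locus was 1, 1 and 3 in control brainstem cultures 51, 59 and 61 and 3, 1 and 1 in K27M brainstem cultures 41, 59 and 61. In telencephalon it was 3, 2 and 4 in control cultures 51, 59 and 61 and 5, 5, 4 and 5 in K27M cultures 41, 51, 59 and 61. These ranges overlapped (1 to 3 against 2 to 5), as did those of the other 9 genes, and over 19443 coding genes with a locus peak 0.0309% had ranges that did not overlap. Per 10000 peaks of the list, the Otx1 locus held 0.293 to 0.619 peaks in brainstem and 0.832 to 1.32 in telencephalon, with no overlap. Otx1 was the only 1 of the 10 genes with this separation. Over coding genes 0.159% were separated in either direction and 0.0463% with brainstem below telencephalon. The mean difference in number, brainstem minus telencephalon, was -2.33 and lay between -2.67 and -2.17 when any 1 library was left out. With peaks of p at most 1e-10 it was -0.286. At equal number the Otx1 locus held 0 to 1 peaks in brainstem and 1 to 2 in telencephalon, so the ranges overlapped.

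**Figure D2:**
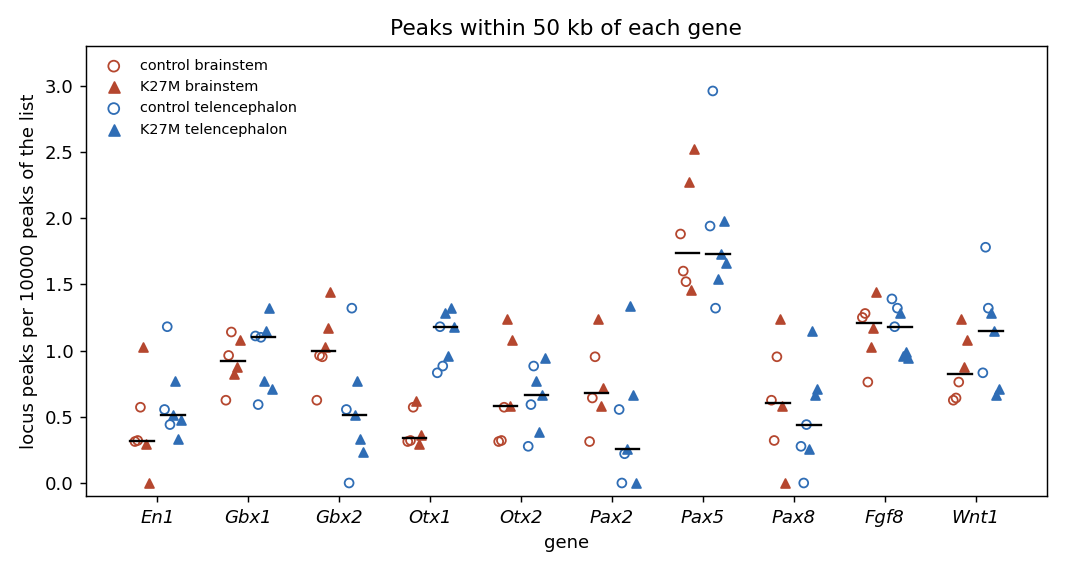
Peaks within 50 kb of each gene per 10000 peaks of the same list (y axis), by gene (x axis), with brainstem in red, telencephalon in blue, open circles for control, filled triangles for K27M and a bar at the median of each region. On this scale Otx1 alone has no overlap between the regions, at 0.293 to 0.619 in brainstem and 0.832 to 1.32 in telencephalon. At equal number its counts overlap, at 0 to 1 and 1 to 2.

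Otx2, the paralog that marks the anterior side of the boundary, showed no such contrast. Brainstem libraries had a call at its promoters in 4 of 6 cases and telencephalon libraries in 5 of 7 (exact p = 1). Of the 9 libraries with an Otx2 promoter peak, 7 also had one at Otx1. Otx2 (chr14:48657677-48673819, minus strand) has 10 transcription starts, and the calls were spread over 3 merged peaks, which lay at chr14:48664869-48666813 in 6 libraries, at chr14:48667743-48668125 in 1 and at chr14:48673634-48675023 in 4. The first was called in 4 of 6 brainstem and 2 of 7 telencephalon libraries, at folds of 2.33 to 2.79 (exact p = 0.286). The promoter windows of the antisense gene Otx2os1 overlap all 3, so these peaks cannot be assigned to Otx2 alone. The sequence below is one of 4 RefSeq Otx2 promoters, chr14:48665060-48665359 on the minus strand. It lies inside the first peak, 4 libraries had a peak over it, and capitals mark TAATTA and TAATCC on either strand, the core letters of homeobox and OTX-type binding motifs.
Otx2 promoter: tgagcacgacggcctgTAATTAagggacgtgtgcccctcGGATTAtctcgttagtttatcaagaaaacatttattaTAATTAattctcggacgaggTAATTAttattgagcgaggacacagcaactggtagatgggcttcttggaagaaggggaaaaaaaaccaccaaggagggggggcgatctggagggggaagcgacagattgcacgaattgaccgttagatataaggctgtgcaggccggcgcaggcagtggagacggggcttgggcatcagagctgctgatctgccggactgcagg
It held 3 TAATTA and 1 TAATCC, which is read here as GGATTA on the opposite strand. It is printed because it held the most of these letters, and of the other 3 RefSeq Otx2 promoters 1 held a single TAATTA site and 2 held neither motif. TAATTA was found in 5.29% and TAATCC in 7.06% of all RefSeq promoters of 300 bases. Over the centres of the 99 locus peaks, TAATTA was found in 6 and TAATCC in 4, against 5.13% and 5.99% of all peak centres. The most regular Otx2 element was 36.3 kb upstream (chr14:48709333-48710991), called in 5 of 6 brainstem and 6 of 7 telencephalon libraries at a mean fold of 3.14 ± 0.272 (SD, n = 11), against folds of 2.25 to 2.86 at its promoters. Peaks 9.7 kb and 36.6 kb downstream of the nearest start were called in 4 and 3 libraries.

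Gbx2, the homeobox gene of the hindbrain side, showed the opposite direction at elements 3.8, 11.8 and 40.3 kb upstream. None passed the adjusted threshold, and the promoter calls split less in the uncut lists. Gbx2 (chr1:89927956-89931179, minus strand) had its promoter called in every brainstem library (6 of 6) and in 5 of 7 from telencephalon (exact p = 0.462). The promoter folds were 2.36, 2.61 and 3.46 in control brainstem cultures 51, 59 and 61, 3.38, 2.42 and 2.51 in K27M brainstem cultures 41, 59 and 61, 2.51 and 2.38 in control telencephalon cultures 51 and 61, and 2.45, 2.42 and 2.47 in K27M telencephalon cultures 41, 51 and 59. The 2 highest folds belonged to the 2 longest brainstem lists, and the other values overlapped. At equal number the promoter was called in 3 of 6 brainstem and 1 of 7 telencephalon libraries. The noncoding gene D130058E05Rik shares this promoter.

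An element 3.8 kb upstream of Gbx2 (chr1:89934391-89935479), outside any other coding gene, was called in all 6 brainstem libraries and in 1 of 7 telencephalon libraries. Its folds were 2.39, 2.23 and 2.18 in control brainstem cultures 51, 59 and 61, 2.62, 2.58 and 2.22 in K27M brainstem cultures 41, 59 and 61, and 2.15 in control telencephalon culture 61. The single telencephalon value was the lowest of the 7, and came from a list of 45322 peaks. The unadjusted exact p was 0.00466, and the adjusted p over 11706 merged peaks was 0.84. With libraries matched by culture number p was 0.0625, where the smallest value 6 pairs allow is 0.0312. Without any 1 library the unadjusted p lay between 0.00216 and 0.0152. At equal number only 2 brainstem libraries and 0 telencephalon libraries kept the peak, which had a mean fold percentile of 8.87. A second element 40.3 kb upstream (chr1:89970787-89972141), inside the neighbouring gene Asb18, was called in 5 of 6 brainstem and 1 of 7 telencephalon libraries. Its folds were 2.58 and 2.76 in control brainstem cultures 59 and 61, 2.71, 2.93 and 2.48 in K27M brainstem cultures 41, 59 and 61, and 2.57 in control telencephalon culture 61. The unadjusted p was 0.0291 and the adjusted p 1, and leaving out any of 11 of the 13 libraries raised the unadjusted p to as much as 0.0801. At equal number no library kept this peak. An element 11.8 kb upstream (chr1:89941834-89944039), named after its values were seen, was called in 4 of 6 libraries from brainstem and 2 of 7 from telencephalon (exact p = 0.286). One 7.1 kb downstream of the nearest start was called in 2 and 4. Of the remaining upstream peaks, one at 37.7 kb was called in 1 K27M telencephalon library alone. Another at 38.4 kb was called in 1 control telencephalon library alone.

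Of the 99 merged peaks in the 10 loci, 18 were called in 5 to 8 libraries and could be tested by region, and 3 had an unadjusted p under 0.05, namely the Gbx2 elements at 3.8 and 40.3 kb and the Otx1 element at 1.3 kb. Over the whole series the share was 2.36% (276 of 11706). After adjustment the count was 0 of 11706 (0%), and 0 of 1815 promoters (0%, with 39 or 2.15% at an unadjusted p under 0.05). The smallest Fisher's exact p that 6 against 7 libraries allow is 0.000583. A fully split peak can therefore pass only if many others split as fully. Hoxa2, fully split by region, had an adjusted p of 0.212. These counts thus do not show that the regions are alike at these loci. Gbx1 and Gbx2 belong to a brainstem gene set that the study drew from its own cultures, so their direction is not independent evidence.

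**Figure D3:**
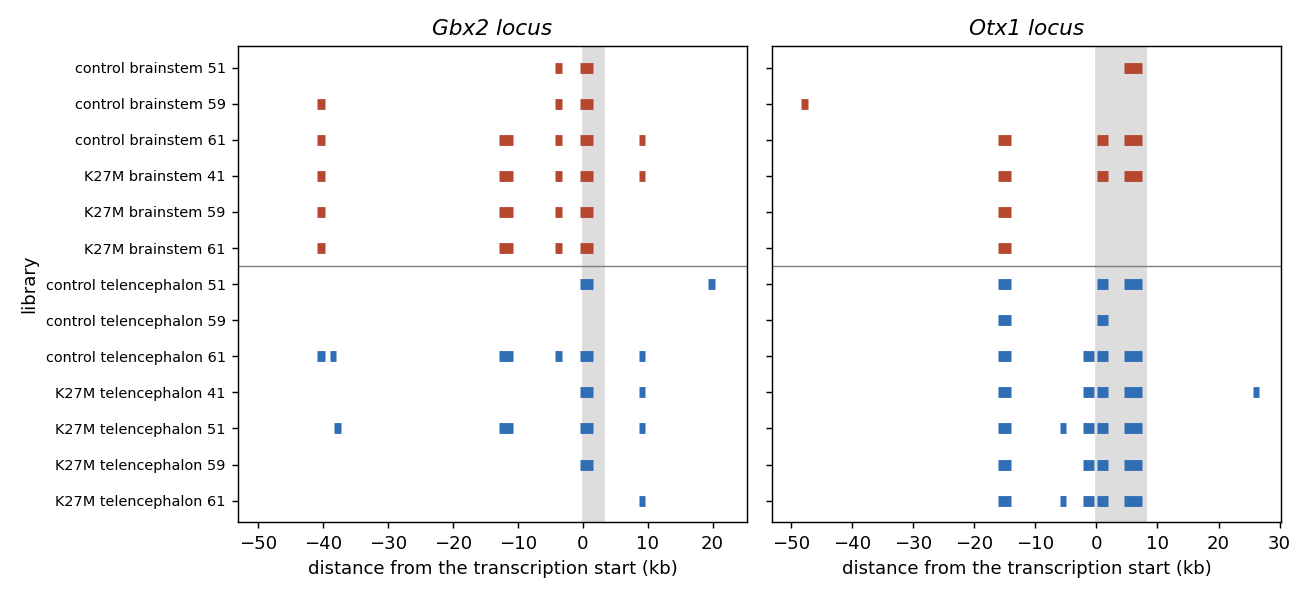
Merged peaks called in each library (rows) in the Gbx2 and Otx1 loci, against distance from the transcription start in kb along the direction of transcription (x axis), with brainstem libraries in red, telencephalon in blue and the gene shaded. Bars span the merged peak, drawn at least 1 kb wide. The Gbx2 element 3.8 kb upstream fills 6 of 6 brainstem rows and 1 of 7 telencephalon rows, and the peaks at and just upstream of the Otx1 start lie mostly in telencephalon rows.

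Gbx1, the paralog of Gbx2, had few peaks of its own. Its promoter (gene at chr5:24502757-24527202, minus strand) was called in control brainstem culture 61 alone, at fold 2.28, and that list is the longest. A further K27M telencephalon library had a peak of fold 2.19 in the first part of the gene, joined to the same merged peak but outside the promoter window. The regular peaks of the locus belonged to its neighbours: the promoter of Abcf2 at the far edge (chr5:24576684-24578261) was called in 13 libraries at 3.94 ± 0.508 (SD, n = 13), and promoters of Agap3 in 11 and 8.

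Among the paired-box genes, Pax5 was the constant one in the uncut lists. PAX2, PAX5 and PAX8 are closely related transcription factors, and Pax2 is the earliest of them at the boundary. Pax5 (chr4:44524757-44710487, minus strand) was called in 13 libraries, Pax2 (chr19:44756045-44837871) in 9 and Pax8 (chr2:24420560-24475599, minus strand) in 5. Pax2 and Pax8 were called together in 4 libraries. At equal number the Pax5 promoter was kept in 4 libraries and those of Pax2 and Pax8 in 0. With peaks of p at most 1e-10 the Pax5 promoter was called in 0. The Pax5 promoter peak (chr4:44702477-44705954) had folds of 2.59, 2.81 and 2.78 in control brainstem cultures 51, 59 and 61, 3.29, 2.78 and 2.85 in K27M brainstem cultures 41, 59 and 61, 2.36, 2.8 and 2.92 in control telencephalon cultures 51, 59 and 61, and 2.59, 3.29, 2.67 and 2.24 in K27M telencephalon cultures 41, 51, 59 and 61. The 4 groups overlapped. This peak lies at an internal start, and the RefSeq Pax5 promoter at the outer end of the gene (chr4:44710645-44710944), with 23 CG dinucleotides, had no peak in any library. The promoter window of the noncoding gene 5730488B01Rik also overlaps the called peak.

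The Pax2 promoter was called in 4 of 6 libraries from brainstem and 5 of 7 from telencephalon at 2.5 ± 0.206 (SD, n = 9), and the Pax8 promoter in 2 of 6 and 3 of 7 at 2.84 ± 0.269 (SD, n = 5). For Pax8 the exact p was 1 by region and 0.266 by genotype (adjusted p = 1 for both). Pax2, called in 9 libraries, lay outside the tested range, with exact p of 1 and 0.559. A Pax2 element 29.6 kb upstream (chr19:44726097-44726755) was called in 3 of 6 brainstem libraries, at folds of 2.98 in control culture 61 and 2.64 and 2.67 in K27M cultures 41 and 59, and in 0 of 7 telencephalon libraries. With 3 libraries the exact p was 0.0699 and the peak fell outside the tested range. A Pax2 peak 122.4 kb past the start, beyond the gene, was called in 3 libraries, and one upstream (chr19:44741429-44742659) in 2. Of the 15 merged peaks in the Pax2 locus, only the promoter was called in more than 3 libraries. In the Pax8 locus, peaks 45.9 kb upstream, 14.5 kb downstream of the nearest start and 27.5 kb upstream were called in 6, 6 and 5 libraries, with a lowest exact p by region of 0.286.

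The Pax5 locus held the most peaks of the 10, and with the gene it is also the longest. It had 5 to 11 peaks per library (median 6, at percentile 86.2 of coding genes), in a gene of 185731 bases with 50 kb on either side. Its highest peak lay at fold percentile 88.9 to 99.6 of the list in every library. The highest mean folds were those of chr4:44755762-44757301, the promoter of Zcchc7 (4.39 ± 0.709, SD, n = 13), and of chr4:44518340-44519675, 5.1 kb past the end of Pax5 (4.14 ± 0.587, SD, n = 13). An intronic element (chr4:44694233-44695185), printed above, is 8.7 kb inside the nearest start and was called in all 13 libraries.

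Engrailed-1 (En1), a homeobox repressor of the midbrain and anterior hindbrain, differed more by genotype than by region in its promoter calls, which lay outside the tested range. En1 (chr1:120602418-120607992) was called at its promoter in 6 of 6 control and 3 of 7 K27M libraries. By region the calls were 4 of 6 in brainstem and 5 of 7 in telencephalon. The folds were 2.31, 3.01 and 2.4 in control brainstem cultures 51, 59 and 61 and 2.29, 2.52 and 2.23 in control telencephalon cultures 51, 59 and 61. In K27M they were 2.25 in brainstem culture 41 and 2.16 and 2.11 in telencephalon cultures 51 and 61. The K27M values, at 2.11 to 2.25, overlapped the control values, at 2.23 to 3.01. The exact p by genotype was 0.0699 unadjusted and 0.25 with libraries matched by culture number, where 5 pairs allow no value below 0.0625, and a gene called in 9 libraries lies outside the tested range. At equal number the promoter was kept in 2 libraries.

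An element 41.8 kb downstream of En1 (chr1:120643559-120644889), 35.6 kb from the gene and printed above, showed the reverse. It was called in 0 of 6 control and 5 of 7 K27M libraries, at folds of 2.49 and 2.91 in K27M brainstem cultures 41 and 59 and 2.58, 2.45 and 2.6 in K27M telencephalon cultures 41, 51 and 61. The exact p was 0.021 unadjusted and 1 adjusted over 11706 merged peaks, of which 147 (1.26%) reached an unadjusted p under 0.05. With libraries matched by culture number p was 0.25, and at equal number no library kept the peak. It was the only 1 of the 18 tested locus peaks with an unadjusted p under 0.05 by genotype. Without any 1 of the 5 libraries that had it, the unadjusted p rose to 0.0606. An En1 element 15.3 kb upstream was called in 1 of 6 libraries from brainstem and 5 of 7 from telencephalon (exact p = 0.103), and one 52.9 kb downstream in 2 K27M libraries.

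Fgf8 and Wnt1 encode the secreted signals of the organizer. Fgf8 (chr19:45736798-45742915, minus strand) had no promoter peak at any of its 5 starts in any library, and 1 exonic peak in 1 K27M telencephalon library was the only peak in the gene. Its locus held 2 to 6 peaks per library, among them the promoters of the neighbours Mgea5 and Npm3. The Mgea5 promoter peaks at chr19:45773386-45774875 and chr19:45782473-45784273 were called in 13 libraries, and the Npm3 peak at chr19:45746221-45749688, 5.0 kb upstream of Fgf8, in 12. An element 24.8 kb downstream of the nearest Fgf8 start (chr19:45717549-45718122), named after its values were seen, lay at no other promoter and was called in 5 of 6 brainstem and 5 of 7 telencephalon libraries at 3.45 ± 0.665 (SD, n = 10).

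Wnt1 (chr15:98789857-98793837) was called at its promoter in 3 of 6 libraries from brainstem and 3 of 7 from telencephalon, and in 2 of 6 control and 4 of 7 K27M libraries (exact p = 1 and 0.592, adjusted p = 1 for both over 1815 promoters). The folds were 2.73 in control brainstem culture 61, 2.3 and 2.9 in K27M brainstem cultures 41 and 59, 2.37 in control telencephalon culture 61, and 2.41 and 2.19 in K27M telencephalon cultures 41 and 51. The constant peaks of its locus were the promoters of Arf3 (chr15:98762221-98763935) and Prkag1 (chr15:98830733-98832787). A broad peak 15.6 kb downstream of the start, in Ddn, was called in 6 libraries. The neighbouring WNT gene Wnt10b had a weak promoter peak, at fold 1.99 and 2.04, in 2 K27M libraries.

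Across the 10 loci, 42 of the 99 merged peaks were called in a single library, 18 in 2 to 4, 18 in 5 to 8, 12 in 9 to 12 and 9 in all 13. The loci held 16 of the 99 in the shortest list and 57 in K27M brainstem culture 41, and 25 of the 42 single-library peaks came from the 4 longest lists. By position, 12 of the 99 lay at a promoter of a boundary gene, 5 in other exons, 15 in introns, 33 upstream and 34 downstream, and 14 lay at the promoter of another coding gene. Of the 9 called in all 13 libraries, 6 were promoters of neighbours, 1 was the Pax5 promoter and 2 were other Pax5 elements.

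At these 9 peaks the fold itself could be compared, with limma on log2 fold over 13075 peaks called in every library. None of the 9 passed the adjusted threshold for region, genotype or their interaction. Over all 13075 peaks 4 passed for region (0.0306%), and 0 for genotype and 0 for the interaction (0%, with 638 and 566 at an unadjusted p under 0.05). The Pax5 intronic peak had the largest estimated difference. Its folds were 3.45, 3.19 and 5.38 in control brainstem cultures 51, 59 and 61, 4.68, 3.22 and 2.69 in K27M brainstem cultures 41, 59 and 61, 3.56, 3.31 and 3.73 in control telencephalon cultures 51, 59 and 61, and 3.6, 3.39, 2.66 and 3.28 in K27M telencephalon cultures 41, 51, 59 and 61. Control and K27M values overlapped in both regions. The difference of K27M minus control, on the log2 scale, was -0.31 ± 0.09 (SE), with a limma adjusted p of 0.796. The 95% interval of that difference ran from -0.49 to -0.13. The Pax5 promoter peak differed by 0.03 ± 0.08 by genotype (limma adjusted p = 0.995) and by 0.04 ± 0.07 by region (adjusted p = 0.958). By region, the Mgea5 promoter peak nearer to Fgf8 differed, brainstem minus telencephalon, by an estimated 0.15 ± 0.07 (SE, limma adjusted p = 0.737), with an interval from 0.004 to 0.289. The estimates of the other 8 peaks by region lay between -0.07 and 0.08 in log2 fold (limma adjusted p at least 0.897).

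**Figure D4:**
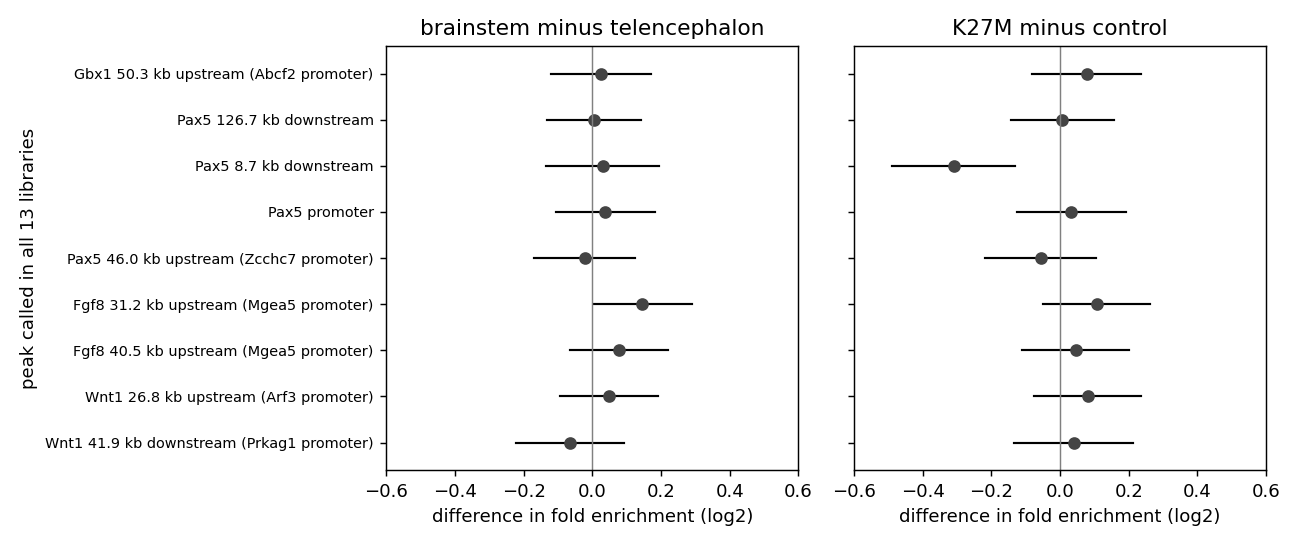
Difference in log2 fold enrichment at the 9 locus peaks called in all 13 libraries, brainstem minus telencephalon on the left and K27M minus control on the right, with points at the limma estimate and lines at its 95% interval. The Pax5 intronic peak, 8.7 kb inside the nearest start, has a genotype interval clear of 0 (-0.49 to -0.13), as has the Mgea5 promoter peak 31.2 kb upstream of Fgf8 by region (0.004 to 0.289), and neither passes the adjusted threshold.

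The other genes of the organizer and its FGF pathway were called more regularly. Of 20 such genes, 13 were called in all 13 libraries and 2, the ligands Fgf17 and Wnt3a, in none. All 8 targets and feedback regulators of FGF signalling (Spry1, Spry2, Spry4, Dusp6, Il17rd, Flrt3, Etv4 and Etv5) were called in every library, as were the receptors Fgfr1 and Fgfr2, while Fgfr3 was called in 12. Among the 9 factors, ligands and modulators, Fgf15, Fgf18 and the Groucho corepressor Tle4 were called in 13 libraries, Cnpy1 in 12, En2 in 8, Lmx1b in 6 and Sp8 in 5. The mean promoter fold was 2.46 to 4.53 over the 18 genes with a peak (median 3.03) and 2.28 to 2.84 over the 9 boundary genes with a peak (median 2.5). Of the 20, 3 could be tested for detection, En2, Lmx1b and Sp8, and none had an unadjusted p under 0.05 by region or genotype (lowest exact p = 0.266, adjusted p = 1 for each). En2, the paralog of En1, was called in 5 of 6 control and 3 of 7 K27M libraries, and 7 of its 8 libraries also had the En1 peak. With unadjusted p under 0.05 the share of all promoters was 1.21% by genotype.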

How the data were processed

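Mouse OPC cultures were profiled by Omni-ATAC in 13 libraries. The authors ran the nf-core ATAC-seq pipeline 2.1.2 (Trim Galore 0.6.7, cutadapt 3.4, BWA 0.7.17-r1188, mm10) with broad peaks from MACS2 2.2.7.1 for each library separately. The calling cutoff is not given in the sources used here, and the lowest −log10 q-value of each list was 1 to 1.01. The deposited lists give each peak's fold over local background and the −log10 of its p-value and q-value, and a score that was used only to check the format. No value in these lists was scaled between libraries by the authors, and the lists carry no read counts. For its own comparison at promoters the study normalized ATAC-seq read counts with a loess fit.

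Groups and culture numbers came from the labels. The genes, gene lists, tests and alternatives were chosen with earlier results of these data known. Each of the 10 genes was described by its promoter peaks and up to 3 other locus peaks, ranked by number of libraries and then mean percentile, and by any locus peak with an unadjusted p under 0.05. Detection was compared with two-sided Fisher's exact tests over promoters (1815) and merged peaks (11706) called in 5 to 8 libraries, adjusted by Benjamini-Hochberg at a threshold of 0.05. With 6 against 7 libraries the smallest possible p is 0.000583. Log2 fold at 13075 peaks called in all 13 libraries was scaled by cyclic loess and fitted with limma 3.58.1 (R 4.3.3) with group and culture number, with 6 residual degrees of freedom. The study accounts for matched cultures, so culture number was kept in that fit: correlations of deviations from the group means were -0.06 to 0.17 for 16 same-number pairs, 4 of them over 0.1, and -0.19 to 0.26 for 47 other pairs. Both tests were checked on simulated data. Gene starts came from GENCODE M21, promoter sequences from RefSeq, and peak sequences from GRCm38; coordinates are 1-based on mm10. Alternatives were equal peak number, p at most 1e-10, promoter windows of 500 bp, flanks of 20 and 100 kb, overlap of 200 bp, other scalings and leaving out each library. Python 3.11.15, SciPy 1.17.1 and NumPy 2.4.6 were used.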

Additional observations from a re-analysis of the deposited data

Results flagged for a closer look

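In K27M telencephalon, the group with 4 libraries, 22 sets of values were examined for 1 value far from the others, and 3 were found, where chance alone gives about 1 in 20. The Otx1 locus held 4 peaks in culture 59 and 5 in each of the other 3, a case that the 3 tied counts alone decide and to which that chance rate does not apply. The peak 5.1 kb past the end of Pax5 had a fold of 5.25 in culture 51, against 3.71 to 3.9 in the others, and the Arf3 promoter peak in the Wnt1 locus had a fold of 4.68 in culture 51, against 3.18 to 3.43. Culture 51 gave the longest list of this group, with 52164 peaks, and the part of list length in these values was not tested.

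At the Mgea5 promoter peak farther from Fgf8 (chr19:45782473-45784273), the K27M effect went opposite ways in the regions. Pairs of K27M and control libraries with the same culture number differed by -0.07 and -0.14 (log2) in brainstem and by 0.05, 0.13 and 0.18 in telencephalon, and the mean difference between the regions was -0.23. This was 1 of 9 peaks compared in that way, which was not itself a test. The limma interaction at this peak was -0.18 ± 0.14 (SE), with adjusted p = 0.999.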

How the results depend on the processing

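The number of promoters and merged peaks past the adjusted threshold was 0 by region and by genotype under every alternative run, and no value with a call was reversed. With libraries matched by culture number, the 0 by genotype was fixed in advance, since the exact test on 5 pairs allows no p below 0.0625. By region, 6 pairs allow none below 0.0312, so a pass would need most tested features to split fully. By region, the count of shared peaks with a differing fold (4 of 13075) became 0 with no scaling between libraries. With peaks called in 10 or more libraries it was 17, out of a larger set of 23977. Without 1 library it was 0 to 7. It was 0 on leaving out control brainstem 61, K27M brainstem 59, control telencephalon 59 or control telencephalon 61 (culture numbers). It was 1 without control brainstem 51, 2 without control telencephalon 51 or K27M telencephalon 61, and 7 without K27M telencephalon culture 59. By genotype, the count (0) became 1 of 23977 with peaks called in 10 or more libraries. Without 1 library it was 0 to 2, with 1 without control brainstem culture 59 and 2 without K27M telencephalon culture 59. The interaction count stayed at 0. Without culture number as a replicate block the counts were 4, 0 and 0. In the detection tests, a block by culture number raised every unadjusted p under 0.05 at these genes above 0.05 (0.0625 to 0.25), and the 6 and 5 pairs allow no value below 0.0312 and 0.0625. The range of 4 to 9 libraries was added after the data were seen. The Otx1 promoter was called in 0 of 6 and 2 of 7 libraries at p at most 1e-10 (exact p = 0.462). The cause of these changes was not tested. Most of the promoter peaks described lie under the median fold of their lists, and the depth that their calls rest on is unknown.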
